A study of Homo sapiens with 9 samples.

Results

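Granins are the acidic cargo proteins of dense-core secretory granules, and neuropeptide processing enzymes are the proteases and modifying enzymes that work inside those granules. They are described here through 10 genes, chosen by their symbols in the count table. The granins are CHGA, CHGB, SCG2, SCG3 and VGF. The processing genes are the convertases PCSK1 and PCSK2, the convertase chaperone SCG5, the carboxypeptidase CPE and the amidating enzyme PAM. Of the 67140 genes listed, 13 rows carry these symbols. The 3 extra rows (1 for CHGA and 2 for SCG5) hold no count in any library, so each gene rests on 1 row. All 10 genes were among the 18847 that passed the filter on low counts.

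RNA was sequenced after rRNA depletion from DMS273, an established human small cell lung cancer line. The groups were ATG7/SQSTM1 KO cells (CRISPRv2 knockouts of ATG7 and of SQSTM1), ATG7 KO cells (a CRISPRv2 knockout of ATG7) and control cells carrying a scrambled guide, labelled WT, with 3 libraries in each. ATG7 encodes the E1-like enzyme that autophagosome formation needs, and SQSTM1 encodes p62, a cargo receptor that autophagy itself degrades. The labels do not state if the edited lines were clonal or if libraries of a group came from separate cultures, so p-values measure the spread between these libraries, which may be technical.

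In neuroendocrine cells, granins help cargo condense in the trans-Golgi network and are themselves cut into peptides. A prohormone is cleaved by PCSK1 or PCSK2 at pairs of basic residues, CPE then removes the exposed basic residues, and PAM turns a C-terminal glycine into an amide. SCG5 holds PCSK2 in a form that can mature. Chromogranin A, the product of CHGA, is a clinical marker of neuroendocrine tumours, small cell lung cancer among them.

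The promoters of CHGA, VGF and PCSK1 are shown because each holds a full cAMP response element, the palindrome TGACGTCA that factors of the CREB family bind. Each line gives the 150 bases before the RefSeq start of the gene (GRCh38.p14), 5′ to 3′ on the gene's strand, with the element in capitals.
CHGA: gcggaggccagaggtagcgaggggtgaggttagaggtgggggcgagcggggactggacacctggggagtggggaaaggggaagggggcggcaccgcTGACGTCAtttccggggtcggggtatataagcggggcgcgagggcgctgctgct
VGF: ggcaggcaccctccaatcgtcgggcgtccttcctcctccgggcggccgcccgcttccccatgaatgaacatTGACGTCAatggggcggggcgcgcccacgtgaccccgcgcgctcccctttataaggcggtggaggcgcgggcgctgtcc
PCSK1: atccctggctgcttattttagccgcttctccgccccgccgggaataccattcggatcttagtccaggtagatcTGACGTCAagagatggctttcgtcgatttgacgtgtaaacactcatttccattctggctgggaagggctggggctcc
The CHGA stretch is chr14:92923000-92923149 on the plus strand, the VGF stretch chr7:101165570-101165719 on the minus strand, and the PCSK1 stretch chr5:96433249-96433398 on the minus strand. The element began 54 bases before the start in CHGA, 79 in VGF and 77 in PCSK1. The gene coordinates given with the values below follow GENCODE 29, whose genes start farther upstream: the PCSK1 stretch lies wholly inside that gene, the CHGA element lies after that start, and the VGF element before it.

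Of the 10 genes, 8 had promoters in the RefSeq table, 12 in all, and 3 genes held the element. Among all 35116 promoters of that table, 1.85% held it in the same window, which runs from 250 bases before to 50 after the start. Both strands were searched. The second PCSK1 promoter of the table did not hold it. The left arm of the RE1 element, TTCAGCACC, which the repressor REST binds, was found in SCG3, 8 bases after its start, and is present in 0.376% of all promoters. The 3 genes with the cAMP response element did not share 1 pattern of change. CHGA and VGF were lower in ATG7 KO cells than in both other groups, and PCSK1 was lower in both knockouts than in control, as the values below show. A match of letters is a description and not a measured binding site.

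Library totals ran from 28675576 to 34222098 counts, and levels are given as CPM, counts scaled to library size after TMM normalisation. The knockouts were read first. ATG7 averaged 10.6 ± 0.55 CPM in ATG7/SQSTM1 KO cells, 11.7 ± 1.52 CPM in ATG7 KO cells and 27.1 ± 0.901 CPM in control cells (SD, n = 3 each). SQSTM1 averaged 51.9 ± 3.29 CPM in ATG7/SQSTM1 KO cells, 391 ± 4.47 CPM in ATG7 KO cells and 376 ± 3.53 CPM in control cells (SD, n = 3 each). No library went against its label. Libraries of 1 group differed by more than sampling noise (chi-square over its degrees of freedom 4.47 to 7.03).

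The order of the 10 genes was read per length, as CPM per kilobase of annotated exon. In control cells CPE led with 62.0 ± 1.11, PAM followed with 20.8 ± 0.335 and CHGB with 7.97 ± 0.128 CPM per kilobase (SD, n = 3 each). VGF stood at 4.0 ± 0.305, SCG2 at 3.07 ± 0.0951, CHGA at 2.13 ± 0.142 and SCG3 at 2.00 ± 0.197 CPM per kilobase. PCSK1 (0.355 ± 0.112), SCG5 (0.127 ± 0.0288) and PCSK2 (0.0877 ± 0.00881) were last. CHGA and SCG3 were the only neighbours in this order whose control libraries overlapped. Among 18612 tested genes with a known exon length, CPE lay at the 96.6th percentile of control cells and PAM at the 88.2nd. CHGA lay at the 42.3rd percentile, PCSK1 at the 15.4th and PCSK2 at the 3.41st. The amidating and trimming enzymes were thus abundant in this line, while chromogranin A transcripts were of middling rank and PCSK1 and PCSK2 ranked low.

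In ATG7 KO cells the order differed. SCG2, at 4.45 ± 0.350 CPM per kilobase, came next after CPE (40.6 ± 0.193) and PAM (17.7 ± 0.176). VGF (2.53 ± 0.193) and CHGB (2.25 ± 0.0898) came next, and their libraries overlapped. The libraries of SCG5 and PCSK1 also overlapped in these cells. In ATG7/SQSTM1 KO cells the first 5 genes stood in the control order, and the libraries of SCG3 and CHGA and those of PCSK1 and PCSK2 overlapped.

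**Figure D1:**
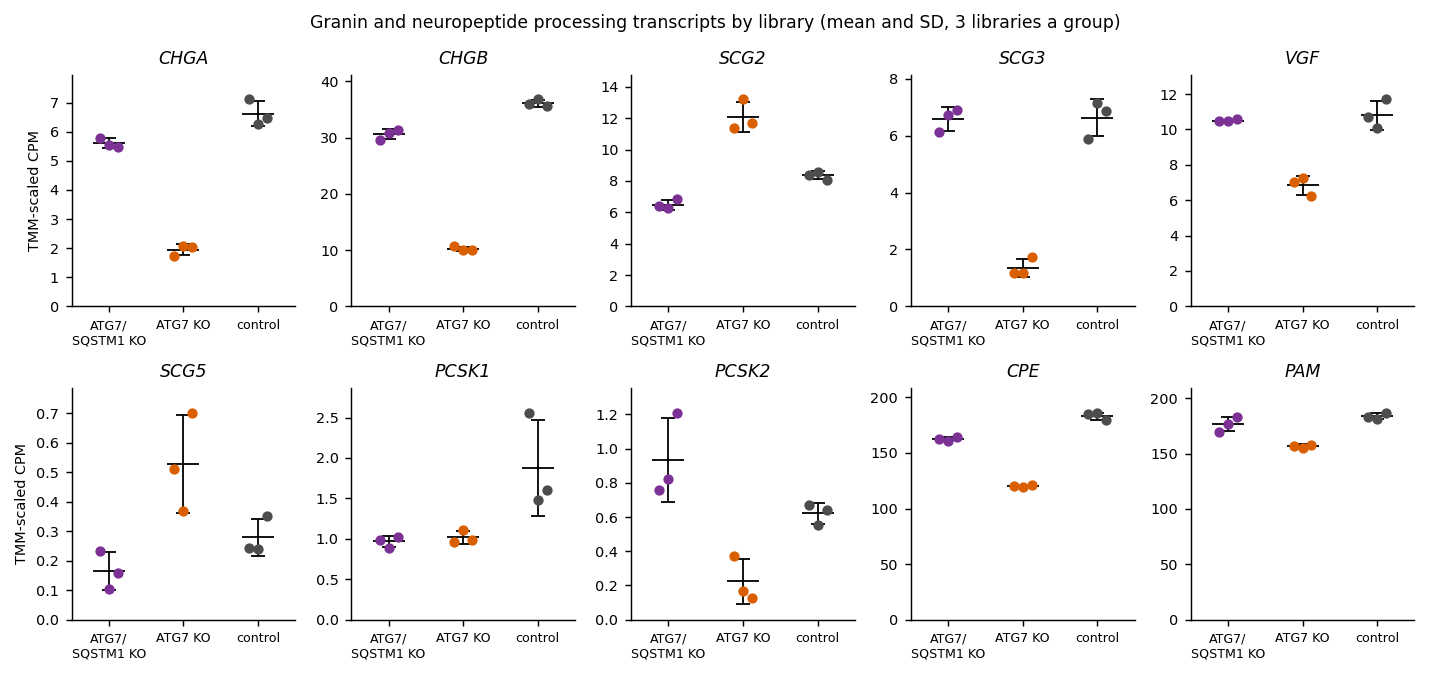
TMM-scaled CPM (vertical axes, starting at 0 and scaled per gene) of the 10 genes in each library of ATG7/SQSTM1 KO, ATG7 KO and control cells. Points are libraries, horizontal bars the mean and error bars the SD of 3 libraries. CHGA, CHGB, SCG3, VGF, PCSK2, CPE and PAM are lowest in ATG7 KO cells, SCG2 and SCG5 highest there, and PCSK1 is higher in control cells than in either knockout.

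Setting ATG7 KO cells against control cells addresses which of these transcripts differ once ATG7 is knocked out. Of the 10 genes 8 fell and 1 rose in ATG7 KO cells, against 28.3% of all tested genes that fell and 28.4% that rose. CHGA, CHGB, SCG3 and PCSK2 were called and at least 2-fold lower, as were 8.28% of all tested genes, and 0 of the 10 were called and at least 2-fold higher, as were 4.22%. The libraries of the groups did not overlap for 10 of the 10 genes, as held for 62.4% of all tested genes. The median fitted log2 change of the 10 was −0.78, and that of all tested genes was −0.02. Among the granins 4 fell and SCG2 rose. Among the processing genes 4 fell, and SCG5 did not pass the test. SCG5 passed the low-count filter only through ATG7 KO cells. PCSK2 passed it through control and ATG7/SQSTM1 KO cells, where it was higher, and reached its level in 1 ATG7 KO library. The PCSK2 call is therefore given as a description. In bulk RNA, fewer cells that express a gene and less RNA per cell cannot be told apart.

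CHGB, on chromosome 20 (5911430 to 5925361, plus strand), encodes chromogranin B and was the most abundant granin in control cells. It stood at 10.7, 9.99 and 9.95 CPM in ATG7 KO cells and at 35.9, 36.8 and 35.7 CPM in control cells. Every ATG7 KO library lay below every control library. The fitted log2 change was −1.82 (SE 0.0565, edgeR adjusted p = 8.75e-17), which leaves 0.283 of the control level.

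CHGA, on chromosome 14 (92923080 to 92935293, plus strand), encodes chromogranin A. Its counts were 51, 62 and 64 in ATG7 KO libraries and 233, 182 and 202 in control libraries, or 1.74, 2.08 and 2.04 CPM against 7.11, 6.27 and 6.47 CPM. The groups did not overlap. The log2 change was −1.76 (SE 0.129, edgeR adjusted p = 1.65e-10). The count ratio of CHGB to CHGA was 5.27 ± 0.749 in ATG7 KO cells and 5.48 ± 0.41 in control cells (SD, n = 3 each), a difference smaller than the spread.

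SCG3, on chromosome 15 (51681353 to 51721031, plus strand), encodes secretogranin III, which binds chromogranin A and cholesterol-rich granule membrane. It had the largest fall of the 10 genes in this comparison. Its counts were 35, 35 and 54 in ATG7 KO libraries and 193, 207 and 214 in control libraries. These are 1.19, 1.17 and 1.72 CPM in ATG7 KO cells, against 5.89, 7.13 and 6.85 CPM in control cells. The log2 change was −2.27 (SE 0.154, edgeR adjusted p = 4.09e-11). VGF, on chromosome 7 (101162509 to 101165593, minus strand), encodes a granin that growth factors induce and that is the precursor of several peptides. It fell by less, to 7.03, 7.24 and 6.25 CPM in ATG7 KO cells against 10.7, 10.1 and 11.7 CPM in control cells. Its log2 change was −0.66 (SE 0.0901, edgeR adjusted p = 1.90e-06).

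SCG2, on chromosome 2 (223596940 to 223602503, minus strand), encodes secretogranin II, the precursor of secretoneurin. It was the granin that moved the other way. SCG2 stood at 11.4, 13.2 and 11.7 CPM in ATG7 KO cells and at 8.39, 8.58 and 8.07 CPM in control cells. All ATG7 KO libraries lay above all control libraries, with a log2 change of 0.54 (SE 0.0883, edgeR adjusted p = 2.31e-05). The make-up of the granin transcripts differed accordingly. Per length, SCG2 made up 43.3 ± 1.73% of the 5 granins in ATG7 KO cells and 16.0 ± 0.581% in control cells (SD, n = 3 each). CHGB made up 22 ± 1.45% in ATG7 KO cells and 41.6 ± 0.793% in control cells. The count ratio of SCG2 to CHGB was 1.07, 1.32 and 1.18 in ATG7 KO libraries and 0.234, 0.233 and 0.226 in control libraries. The share of VGF was 24.6 ± 1.36% in ATG7 KO cells and 20.9 ± 1.48% in control cells, a smaller difference but without overlap of libraries. The summed level of the 5 granins was 32.5 ± 1.06 CPM in ATG7 KO cells and 68.5 ± 0.51 CPM in control cells.

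**Figure D2:**
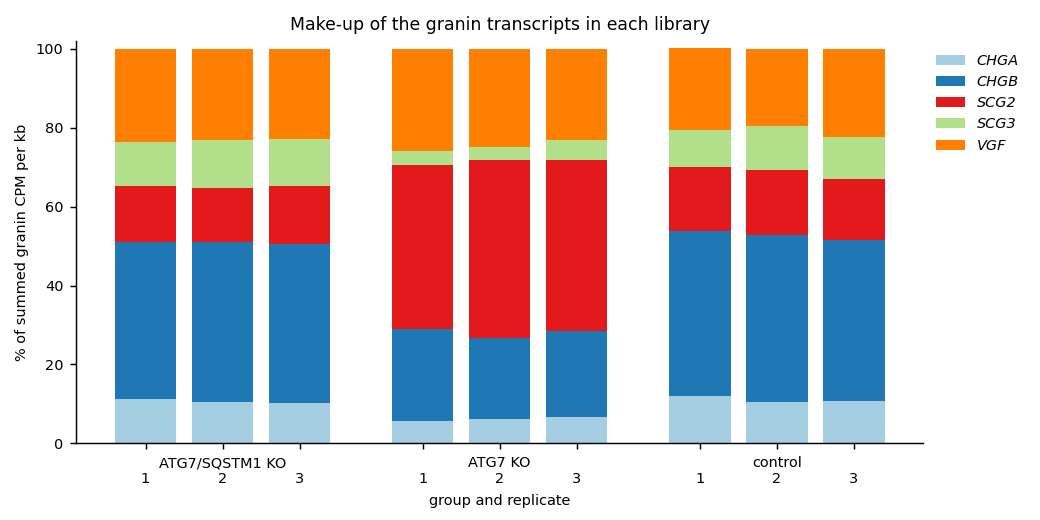
Share of each granin (vertical axis, % of the summed CPM per kilobase of the 5 granins) in each library of ATG7/SQSTM1 KO, ATG7 KO and control cells, 1 stacked bar per library. SCG2 takes 43.3% on average in ATG7 KO cells, 14.2% in ATG7/SQSTM1 KO cells and 16.0% in control cells.

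The convertases were sparse. PCSK2, on chromosome 20 (17226107 to 17484578, plus strand), had 11, 5 and 4 counts in ATG7 KO libraries and 22, 16 and 20 in control libraries. Summed over a group this is 20 counts in ATG7 KO cells (exact Poisson 95% interval 12.2 to 30.9) and 58 in control cells (44.0 to 75.0). Such intervals cover counting error only. The log2 change was −1.47 (SE 0.41, edgeR adjusted p = 0.00416). PCSK1, on chromosome 5 (96390415 to 96434143, minus strand), had 28, 33 and 31 counts in ATG7 KO libraries and 84, 43 and 50 in control libraries. Control replicate 1 held the highest level, 2.56 CPM, against 1.48 and 1.60 CPM in the other control libraries. The log2 change was −0.89 (SE 0.242, edgeR adjusted p = 0.00344). Without control replicate 1 it was −0.59 and lost its call (edgeR adjusted p = 0.0582). The antisense gene AC104123.1 shares no exonic base with PCSK1 and had 28 counts over all 9 libraries, against 361 for PCSK1.

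SCG5, on chromosome 15 (32641676 to 32697098, plus strand), encodes the small granule protein that accompanies PCSK2. It had 15, 11 and 22 counts in ATG7 KO libraries and 8, 7 and 11 in control libraries. Its log2 change of 0.91 had a 95% interval from 0.02 to 1.80 and did not pass the test (SE 0.429, edgeR adjusted p = 0.0765). SCG5 reached the level of the low-count filter, 0.324 CPM, in 3 ATG7 KO libraries, 1 control library and 0 ATG7/SQSTM1 KO libraries, so it entered the test only through ATG7 KO cells, where it was highest. An antisense gene shares 11 exonic bases with SCG5 and had no count.

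CPE and PAM, the abundant enzymes, fell by less than most granins. CPE, on chromosome 4 (165361194 to 165498320, plus strand), averaged 120.1 ± 0.571 CPM in ATG7 KO cells and 183 ± 3.27 CPM in control cells (SD, n = 3 each), a log2 change of −0.61 (SE 0.0281, edgeR adjusted p = 6.31e-14). PAM, on chromosome 5 (102753981 to 103031105, plus strand), stood at 157, 155 and 158 CPM in ATG7 KO cells and at 183, 181 and 187 CPM in control cells. Its log2 change was −0.23 (SE 0.0304, edgeR adjusted p = 1.36e-06). The count ratio of CPE to PAM was 0.766 ± 0.004 in ATG7 KO cells and 0.998 ± 0.0334 in control cells, without overlap of libraries.

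The double knockout was set against control cells to see which transcripts differ with ATG7 and SQSTM1 both knocked out. Here 4 of the 10 genes fell and 0 rose, near the share of all tested genes called in either direction (38.6%, with 19.6% lower and 19.0% higher). None of the 10 was called and at least 2-fold lower or higher, as were 1.66% and 2.2% of all tested genes. Libraries did not overlap for 7 of the 10 genes, against 48.8% of all tested genes. The median log2 change was −0.21, beside −0.01 for all tested genes. The genes that fell were CHGB, SCG2, PCSK1 and CPE. CHGB stood at 29.6, 30.8 and 31.4 CPM in ATG7/SQSTM1 KO cells and at 35.9, 36.8 and 35.7 CPM in control cells, a log2 change of −0.24 (SE 0.0508, edgeR adjusted p = 0.000699). CPE stood at 163, 161 and 164 CPM in ATG7/SQSTM1 KO cells, against 185, 186 and 179.7 CPM in control cells (log2 change −0.17, SE 0.0277, edgeR adjusted p = 3.45e-05). Both falls were small and without overlap between libraries.

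SCG2 stood at 6.38, 6.25 and 6.85 CPM in ATG7/SQSTM1 KO cells, below the control libraries at 8.39, 8.58 and 8.07 CPM. Its log2 change was −0.36 (SE 0.0915, edgeR adjusted p = 0.00324). SCG2 was therefore above control in ATG7 KO cells and below control in ATG7/SQSTM1 KO cells. PCSK1 had 34, 26 and 32 counts in ATG7/SQSTM1 KO libraries, fewer than each control library, and fell by 0.96 on the log2 scale (SE 0.242, edgeR adjusted p = 0.00311). Over all alternative fits that p ran from 0.00185 to 0.0497 and the log2 change from −1.10 to −0.66. The high control replicate 1 (84 counts, against 43 and 50) is part of this comparison too. The lower PCSK1 levels of the knockouts are therefore not independent results.

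For the other 6 genes the test found no call. The intervals of the log2 change were −0.28 to 0.27 for SCG3 and −0.22 to 0.14 for VGF. For CHGA the log2 change was −0.24 (edgeR adjusted p = 0.117), with all ATG7/SQSTM1 KO libraries (5.80, 5.53 and 5.48 CPM) below all control libraries. For PAM the log2 change was −0.06 (edgeR adjusted p = 0.142), and it was called only when ATG7/SQSTM1 KO replicate 3 was left out (−0.09, edgeR adjusted p = 0.0448). PCSK2 had 26, 24 and 38 counts in ATG7/SQSTM1 KO libraries, with a log2 change of 0.58 (interval −0.12 to 1.28). SCG5 had 8, 3 and 5 counts there, with a log2 change of −0.72 (interval −1.78 to 0.33). The intervals of these sparse genes leave room for changes of 2-fold or more.

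ATG7/SQSTM1 KO against ATG7 KO addresses which transcripts differ between cells with both genes knocked out and cells with ATG7 alone knocked out. Loss of SQSTM1 and other differences between the edited lines cannot be told apart here. This comparison shares its libraries with the other comparisons and is no independent repeat of them. In ATG7/SQSTM1 KO cells 7 of the 10 genes were higher and 2 were lower than in ATG7 KO cells, against 30.5% of all tested genes higher, 29.9% lower and 60.5% in either direction. CHGA, CHGB, SCG3 and PCSK2 were called and at least 2-fold higher, as were 9.07% of all tested genes, while 3.86% were called and at least 2-fold lower. PCSK2 reached the level of the low-count filter in 1 ATG7 KO library and in 3 ATG7/SQSTM1 KO libraries, the higher group here. Its call is therefore given as a description. SCG5 is 1 of the 2 lower genes; it was tested only through its level in ATG7 KO cells, the higher group here, so its call is no support for a fall. Libraries did not overlap for 9 of the 10 genes, against 65.9% of all tested genes. The median log2 change was 0.53 for the 10 genes and 0.02 for all tested genes. SCG3 was higher by 2.26 on the log2 scale (SE 0.153, edgeR adjusted p = 3.58e-11), with 6.12, 6.73 and 6.91 CPM in ATG7/SQSTM1 KO cells against 1.19, 1.17 and 1.72 CPM in ATG7 KO cells. CHGB averaged 30.6 ± 0.916 CPM in ATG7/SQSTM1 KO cells and 10.2 ± 0.407 CPM in ATG7 KO cells (SD, n = 3 each), 3.00-fold higher (edgeR adjusted p = 1.15e-15). CHGA was 2.86-fold higher (edgeR adjusted p = 1.56e-09).

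VGF, CPE and PAM were also higher in ATG7/SQSTM1 KO cells, with log2 changes of 0.62, 0.44 and 0.17 (edgeR adjusted p = 3.65e-06, 1.49e-11 and 4.99e-05). PCSK2 was higher by 2.05 (SE 0.392, edgeR adjusted p = 0.000112), with 88 summed counts in ATG7/SQSTM1 KO cells against 20 in ATG7 KO cells. SCG2 was lower, with a log2 change of −0.90 (SE 0.0899, edgeR adjusted p = 1.88e-08). SCG5 had 16 summed counts in ATG7/SQSTM1 KO cells (exact Poisson 95% interval 9.15 to 26.0) and 48 in ATG7 KO cells (35.4 to 63.6), given as a description because of the filter. PCSK1 had no call, with 92 summed counts in each knockout and a log2 change of −0.07 (interval −0.60 to 0.46, edgeR adjusted p = 0.833). The summed level of the 5 granins was 59.8 ± 1.4 CPM in ATG7/SQSTM1 KO cells and 32.5 ± 1.06 CPM in ATG7 KO cells.

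**Figure D3:**
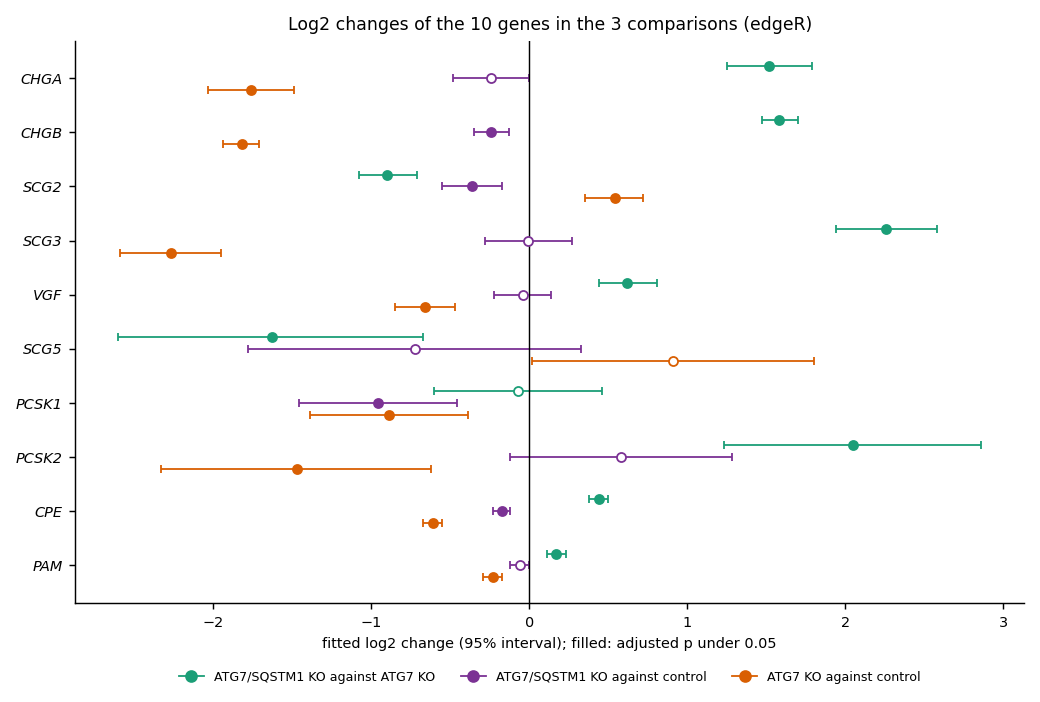
Fitted log2 change (horizontal axis, edgeR) of each of the 10 genes in the 3 comparisons, with 95% intervals; filled points have an adjusted p under 0.05. SCG3 lies at −2.27 in ATG7 KO against control and at 2.26 in ATG7/SQSTM1 KO against ATG7 KO, while SCG2 lies at 0.54 and −0.90.

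The patterns over both changes against control were set beside those of 11969 tested genes with a mean of at least 5 CPM. The genes nearest to CHGA were NOVA1, a neuronal splicing regulator (distance 0.0428 in log2 units), and FAM78B (0.0577). Those nearest to CHGB were FAM78B (0.0598) and IGSF3 (0.0662), and those nearest to PCSK1 were BCAP29 (0.035) and CD24 (0.0981). The distance is taken over the 2 fitted log2 changes, and with this many genes close neighbours exist by number alone.

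Further genes of the pathway were read from lists. PCSK1N, which encodes the granin-like PCSK1 inhibitor proSAAS, averaged 25.4 ± 1.81 CPM in ATG7/SQSTM1 KO cells, 14.6 ± 0.195 CPM in ATG7 KO cells and 23.0 ± 2.17 CPM in control cells (SD, n = 3 each). It fell by 0.65 on the log2 scale in ATG7 KO against control (SE 0.072, edgeR adjusted p = 9.64e-08). GNAS, whose locus also gives rise to a granin-like protein besides the G protein subunit, differed by −0.13 in the same comparison (SE 0.0251, edgeR adjusted p = 0.000197). Gene counts do not part the products of that locus.

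The list counts below are read beside the shares of all tested genes given above: in ATG7 KO against control 28.4% rose and 28.3% fell (56.7% called), in ATG7/SQSTM1 KO against control 38.6% were called, and in ATG7/SQSTM1 KO against ATG7 KO 60.5% were called. Among the other convertases and processing enzymes, 10 of 13 tested rose and 2 fell in ATG7 KO against control (92.3% called), with a median log2 change of 0.29 beside −0.02 for all tested genes. In ATG7/SQSTM1 KO against ATG7 KO 9 were lower and 3 higher (92.3% called). QPCT, which forms N-terminal pyroglutamate on peptides, averaged 3.18 ± 0.31 CPM in ATG7/SQSTM1 KO cells, 6.75 ± 0.272 CPM in ATG7 KO cells and 4.66 ± 0.444 CPM in control cells. MBTPS1, the site-1 protease of the Golgi, averaged 185 ± 5.01 CPM in ATG7 KO cells and 157 ± 2.63 CPM in control cells (log2 change 0.23, SE 0.0302, edgeR adjusted p = 9.38e-07). PCSK6, a convertase of the secretory pathway, fell instead, to 26.0 ± 0.862 CPM in ATG7 KO cells against 46.8 ± 2.27 CPM in control cells (edgeR adjusted p = 1.37e-12). FURIN, the general convertase of the trans-Golgi network, falls outside the naming rule and was chosen after its values were seen. It averaged 45.7 CPM in ATG7 KO cells and 35.4 CPM in control cells (log2 change 0.37, SE 0.049, edgeR adjusted p = 1.38e-06).

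Few peptide precursors were expressed. Of 74 on the list, 11 had no count in any library, 21 had from 1 to 9 counts over all 9 libraries, and 28 were tested. GRP, the gastrin-releasing peptide gene that many small cell lung cancers express, had 3 counts over all 9 libraries, and POMC had 11; neither is picked by the naming rule, and both were singled out with their values known. Of the 28 tested, 5 rose and 11 fell in ATG7 KO against control (57.1% called, beside 56.7% of all tested genes). In ATG7/SQSTM1 KO against control 7 rose and 2 fell (32.1% called, beside 38.6% of all tested genes), and in ATG7/SQSTM1 KO against ATG7 KO 9 were higher and 5 lower (50.0% called, beside 60.5%).

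The 6 most abundant precursor genes were STC2, STC1, NPW, GAL, ADM and NUCB2. STC1, which encodes the glycoprotein hormone stanniocalcin, averaged 82.4 ± 2.94 CPM in ATG7/SQSTM1 KO cells, 51.4 ± 3.69 CPM in ATG7 KO cells and 68.3 ± 4.27 CPM in control cells. NPW, the neuropeptide W precursor, averaged 63.4 ± 7.77 CPM in ATG7/SQSTM1 KO cells, 31.1 ± 0.357 CPM in ATG7 KO cells and 51.4 ± 1.04 CPM in control cells. Both fell in ATG7 KO against control, with log2 changes of −0.41 and −0.73 (edgeR adjusted p = 4.95e-06 and 5.87e-06). NMU, the neuromedin U precursor, fell to 3.02 ± 0.382 CPM in ATG7 KO cells against 6.82 ± 0.37 CPM in control cells (edgeR adjusted p = 3.29e-08). ADM, which encodes the vasodilator adrenomedullin, rose instead and averaged 34.0 ± 1.29 CPM in ATG7/SQSTM1 KO cells, 35.8 ± 4.06 CPM in ATG7 KO cells and 19.5 ± 2.02 CPM in control cells. GAL, the galanin precursor, averaged 33.8 ± 1.35 CPM in ATG7 KO cells and 32.3 ± 2.22 CPM in control cells, with no call (edgeR adjusted p = 0.31).

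Of 31 tested peptide receptor and sorting receptor genes, 6 rose and 17 fell in ATG7 KO against control (74.2% called, beside 56.7% of all tested genes), and 17 were higher and 4 lower in ATG7/SQSTM1 KO against ATG7 KO (67.7%, beside 60.5%). Their median log2 changes were −0.86 and 0.53. ADCYAP1R1, the receptor for the peptide PACAP, averaged 103 ± 1.18 CPM in ATG7/SQSTM1 KO cells, 25.7 ± 0.53 CPM in ATG7 KO cells and 81.0 ± 1.73 CPM in control cells. The somatostatin receptor gene SSTR2 averaged 26.6 ± 1.03 CPM in ATG7/SQSTM1 KO cells, 19.5 ± 1.02 CPM in ATG7 KO cells and 46.7 ± 2.07 CPM in control cells. It was thus below control in both knockouts (log2 change −0.81 in ATG7/SQSTM1 KO and −1.26 in ATG7 KO, edgeR adjusted p = 7.87e-11 and 1.67e-14).

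Of 51 tested genes of dense-core vesicle assembly and release, 15 rose and 25 fell in ATG7 KO against control (78.4% called, beside 56.7% of all tested genes). The number that rose is near the 28.4% of all tested genes that did. SYTL4, a RAB27 effector that docks granules, averaged 18.7 ± 0.467 CPM in ATG7/SQSTM1 KO cells, 5.09 ± 0.217 CPM in ATG7 KO cells and 25.3 ± 0.429 CPM in control cells. The release factor genes UNC13A and STX1A fell in ATG7 KO cells, with log2 changes of −2.03 and −1.33 (edgeR adjusted p = 1.10e-15 and 1.38e-14). CYB561, which carries electrons across the granule membrane and so supplies PAM with ascorbate, rose. It averaged 45.3 ± 1.18 CPM in ATG7/SQSTM1 KO cells, 86.8 ± 2.26 CPM in ATG7 KO cells and 44.3 ± 1.96 CPM in control cells (ATG7 KO against control, edgeR adjusted p = 1.37e-14). Of 16 tested peptide-inactivating peptidases, 7 rose and 4 fell in ATG7 KO against control (68.8% called, beside 56.7% of all tested genes). ANPEP, an aminopeptidase of the cell surface, averaged 0.925 ± 0.302 CPM in ATG7/SQSTM1 KO cells, 5.09 ± 0.241 CPM in ATG7 KO cells and 5.65 ± 0.0419 CPM in control cells.

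**Figure D4:**
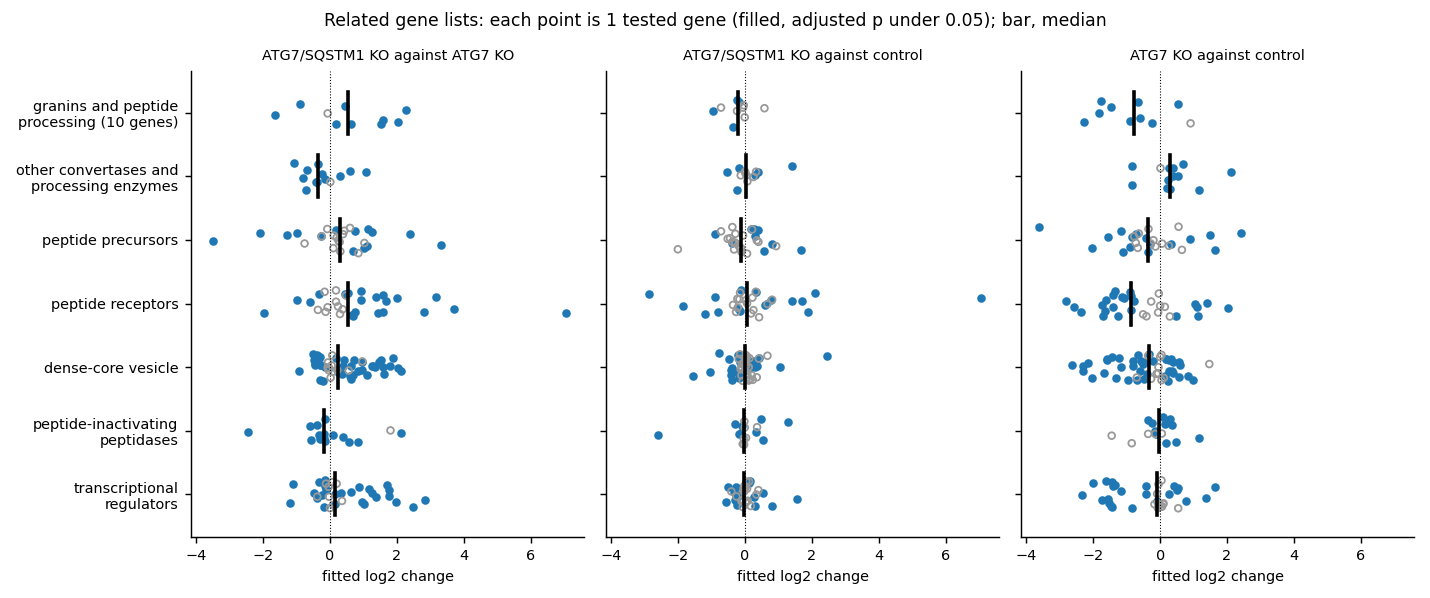
Fitted log2 change (horizontal axes, edgeR) of each tested gene in the 10-gene set and in related lists (rows), 1 panel per comparison; filled points have an adjusted p under 0.05 and bars mark medians. In ATG7 KO against control the median is −0.78 for the 10 genes, 0.29 for the other convertases and processing enzymes and −0.86 for the peptide receptors.

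Transcriptional regulators of granin and neuroendocrine genes were read last. REST, which represses many neuronal and granule genes outside the nervous system, falls outside the naming rule and was chosen for its role after its values were seen. It averaged 31 ± 1.61 CPM in ATG7/SQSTM1 KO cells, 36.6 ± 1.92 CPM in ATG7 KO cells and 25.8 ± 1.17 CPM in control cells, higher than control in both knockouts (edgeR adjusted p = 0.00057 and 6.78e-08). In ATG7 KO against control the naming rule picked NEUROD1, INSM1 and YAP1. The neuroendocrine factor genes NEUROD1 and INSM1 fell, with log2 changes of −1.41 and −1.54 (edgeR adjusted p = 4.05e-19 and 2.97e-17). YAP1, a transcriptional coactivator of the Hippo pathway, rose and averaged 45.8 ± 0.589 CPM in ATG7/SQSTM1 KO cells, 99.4 ± 3.3 CPM in ATG7 KO cells and 31.8 ± 1.59 CPM in control cells (ATG7 KO against control, log2 change 1.64, SE 0.0421, edgeR adjusted p = 4.04e-18). PROX1, a homeobox factor picked in the comparisons of the double knockout, averaged 37.7 ± 1.6 CPM in ATG7/SQSTM1 KO cells, 5.30 ± 0.336 CPM in ATG7 KO cells and 21.4 ± 1.33 CPM in control cells. Of 35 tested regulators, 7 rose and 16 fell in ATG7 KO against control (65.7% called, beside 56.7% of all tested genes).

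The labelled cell type was checked against marker lists. Of 13 tested neuroendocrine markers other than the 10 genes, 12 fell and 1 rose in ATG7 KO against control, beside 28.3% and 28.4% of all tested genes. In ATG7/SQSTM1 KO against ATG7 KO 12 were higher and 1 lower, beside 30.5% and 29.9% of all tested genes. The 14 neuroendocrine markers summed to between 951 and 979.8 CPM in ATG7/SQSTM1 KO cells, between 521 and 535 CPM in ATG7 KO cells and between 842 and 885 CPM in control cells. The summed level of the 10 fibroblast markers on the list ran from 456 to 476 CPM in ATG7/SQSTM1 KO cells, from 745 to 787 CPM in ATG7 KO cells and from 202 to 219 CPM in control cells. Of 9 tested, 6 rose and 0 fell in ATG7 KO against control (66.7% called), beside 28.4% and 28.3% of all tested genes (56.7% called). In ATG7/SQSTM1 KO against control 7 rose and 1 fell (88.9% called), beside 19.0% and 19.6% of all tested genes (38.6% called). Between the knockouts 3 were higher in ATG7/SQSTM1 KO cells and 5 lower (88.9% called), beside 30.5% and 29.9% of all tested genes (60.5% called). No marker of that list was at 0 counts. The 9 blood cell markers summed to 4.94 to 5.42 CPM in ATG7/SQSTM1 KO cells, 10.6 to 11.7 CPM in ATG7 KO cells and 7.11 to 8.17 CPM in control cells, without overlap between groups. Of 5 tested, 3 rose and 2 fell in ATG7 KO against control, beside 28.4% and 28.3% of all tested genes. PTPRC, CD68 and CD14 rose, ITGAM and HBA1 fell, and CD3E, HBB and LYZ had 0 counts. ITGAM averaged 1.44 ± 0.346 CPM in ATG7 KO cells and 2.79 ± 0.252 CPM in control cells. HBA1 averaged 1.03 ± 0.179 CPM in ATG7 KO cells and 2.13 ± 0.246 CPM in control cells. PTPRC, the pan-leukocyte antigen CD45, averaged 0.386 ± 0.0958 CPM in ATG7/SQSTM1 KO cells, 1.47 ± 0.0666 CPM in ATG7 KO cells and 0.174 ± 0.106 CPM in control cells. Its control libraries (0.183, 0.276 and 0.064 CPM) all lay under the level of the low-count filter, 0.324 CPM. PTPRC passed that filter only with the ATG7 KO libraries, where it was highest, so its call is given as a description. The 8 airway and keratin markers summed to 2.71 to 2.93 CPM in ATG7/SQSTM1 KO cells, 9.41 to 9.49 CPM in ATG7 KO cells and 3.05 to 3.69 CPM in control cells, with SCGB1A1 and MUC5AC at 0 counts. Most of that sum was TP63, a basal cell factor and the 1 marker tested, which rose in ATG7 KO against control (log2 change 1.54, SE 0.116, edgeR adjusted p = 2.48e-10). The fibroblast, blood and airway sums were thus all highest in ATG7 KO cells, where most of the granins were lowest. Single markers did not all follow these sums. COL3A1 averaged 149.6 CPM in ATG7/SQSTM1 KO cells and 327 CPM in ATG7 KO cells. POSTN went the other way, with 120.5 CPM in ATG7/SQSTM1 KO cells and 81.5 CPM in ATG7 KO cells. The part of these marker genes in the changes of the granins was not tested.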

How the data were processed

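Per the labels' protocols, rRNA-depleted total RNA was made into strand-specific libraries with dUTP marking. The submitters' processing notes name HISAT2 and the build hg38. The sources used here do not give the counting program, its annotation or its strand setting. The authors deposited whole-number counts per gene, with no normalization as far as the values show. In the library columns 362598 cells are missing and 0 cells hold a 0, so missing cells were read as 0. Gene coordinates and exon lengths come from GENCODE 29 (GRCh38) and promoters from RefSeq (GRCh38.p14).

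Testing used edgeR 4.0.16 under R 4.3.3: filterByExpr by group (minimum count 10), TMM scaling, and a robust quasi-likelihood fit of all 9 libraries with group means (6 residual degrees of freedom). Benjamini-Hochberg adjustment ran over all 18847 tested genes, with a threshold of 0.05. Intervals of log2 changes are 95% intervals from that fit. The script was checked on simulated counts. The 10 genes, the lists and the naming rule were chosen with earlier results of these data known, so list counts carry no test of their own. Named were the 10 genes, ATG7, SQSTM1, up to 3 genes of each list with the smallest p per comparison among genes of at least 1 CPM, and the 6 precursors with the highest mean. Some of these are not reported here. Alternatives were other scalings, other filters, DESeq2 1.42.0, a fit of the 6 libraries compared, a replicate block and leaving out each library.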

Additional observations from a re-analysis of the deposited data

How the results depend on the processing

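Every called log2 change of the 10 genes kept its direction under every alternative run. Of 383 refitted values for these genes, 381 stayed on their side of the threshold. The others were PCSK1 in ATG7 KO against control without control replicate 1 (−0.59, edgeR adjusted p = 0.0582) and PAM in ATG7/SQSTM1 KO against control without ATG7/SQSTM1 KO replicate 3 (−0.09, edgeR adjusted p = 0.0448). With a minimum mean of 1 CPM, PCSK2 and SCG5 were not tested, which left 8 of the 10 genes called in ATG7 KO against control, 4 in the double knockout against control and 7 between the knockouts. In the same order of comparisons, leaving out 1 library gave 8 to 9, 4 to 5 and 9 called. DESeq2 called 9, 4 and 9. When TMM was replaced by library totals, the median change of all genes moved by at most 0.042 on the log2 scale.

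Libraries that share a replicate number did not deviate together (correlations from −0.0613 to 0.0234), so the numbers were not taken as pairs. A fit with the replicate number as a block called 9, 4 and 9 of the 10 genes and 10564, 7137 and 11262 genes in all, against 10688, 7281 and 11395 without the block. Depth limits SCG5, PCSK2 and PCSK1, which had under 100 counts in any library.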
